A study of Homo sapiens with 6 samples.

Results

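The annexin and S100 genes were taken from the deposited count table by name: every ANXA gene with a number, every S100A gene with a number, S100B, S100P, S100Z and S100G, and S100PBP, which encodes a binding partner of the S100P protein. The rule found 32 of the 53712 gene names: 12 annexins, 19 S100 genes and S100PBP. The genes were selected on their names, but the family itself was chosen by the log2 fold changes of ANXA1 and S100A14, already seen among the largest rises in these libraries. The values of those genes are therefore a description and carry no p. The folds of the other members come from the same contrast, and no count over the members is support for a family-wide response.

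The RNA came from cultures of H9, a single established line of human embryonic stem cells, kept in the commercial naive-state medium RSeT. All cells, controls included, received 10 nM DZNep, which inhibits S-adenosylhomocysteine hydrolase, and 5 nM TSA, a histone deacetylase inhibitor, from 24 h after passage. Treated cells also received 2.5 µM UNC1999, which blocks EZH2 and EZH1, the enzymes that methylate histone H3 in Polycomb silencing. Control cells received 2.5 µM UNC2400, a weakly active analog, and both were collected 48 h later. The series holds 3 poly(A) RNA-seq libraries for each compound; cells given neither were not analysed here, so the contrast is between the compounds within DZNep and TSA. Separate cultures are not stated for the libraries. The p-values therefore reflect only how these libraries vary, which may be technical. As the RNA is from bulk culture, more cells of a type and more RNA per cell cannot be told apart.

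Annexins are cytoplasmic proteins that bind acidic phospholipids of membranes when calcium rises, through a repeated core domain that most vertebrate annexins share. They act in membrane organisation, vesicle traffic and the resealing of torn plasma membrane. S100 proteins are small EF-hand calcium sensors that mostly work as dimers and, once calcium is bound, expose a surface that grips partner proteins. Annexins are among these partners: S100A10, which no longer binds calcium, joins ANXA2 in a heterotetramer, and S100A11 binds ANXA1. Many members of both families are typical of epithelia, and S100A8, S100A9 and S100A12 are typical of myeloid cells.

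Total counts were 29699441 to 42345448 per library and overlapped between the compounds (exact two-sided permutation p = 1; 3 against 3 cannot give less than 0.1). A count of 0 allows up to 0.0718 to 0.104 CPM (counts scaled to library size) per library, a limit that covers counting error only. All 8 pluripotent stem cell markers checked (POU5F1, SOX2, NANOG and others) were tested, and they summed to 8426 to 8546 CPM with UNC2400 and 6970 to 7823 CPM with UNC1999. Of these, 5 were lower and none higher. Over all genes tested, 25.9% were lower and 26.8% higher, which is the background for the next list too. Of 8 fibroblast or feeder markers, 5 were tested. The 8 summed to 271 to 302 CPM with UNC2400 and 181 to 197 CPM with UNC1999. COL1A1, COL1A2, THY1 and POSTN (mean UNC2400 levels of 57.2, 137, 88.3 and 6.79 CPM) were lower. PDGFRB was higher, from 0.189 ± 0.166 to 0.508 ± 0.328 CPM (SD, n = 3 each). At so low a control level it may have passed the filter on low counts through the UNC1999 libraries, and its call has that limit. DCN and LUM had at most 3 counts in any library.

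Of the 32 members, 20 passed the filter on low counts and 12 did not. By edgeR's quasi-likelihood test, 12 of the 20 were higher with UNC1999, 1 was lower and 7 did not pass the adjusted p threshold of 0.05. Over all 17596 genes tested, 26.8% were higher and 25.9% lower. Since the contrast is the one that brought up the family, nothing is read from the count. DESeq2 also gave 12 and 1 (23.1% and 24.4% of all genes), as did a fit with the replicate number as a block (27.7% and 26.7%), while limma-voom gave 12 and 2 (26.5% and 26.0%). The members' median log2 fold change, UNC1999 minus UNC2400, was 0.41, and that of all genes tested 0.02. All 3 UNC1999 values lay above all 3 UNC2400 values for 14 of the 20 and below them for 2, where 30.9% and 29.7% of all tested genes did so. In the authors' deposited table, which lists 22 members, 12 are higher and 1 is lower at the same threshold, against 21.3% and 22.7% of its genes.

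ANXA1, S100A14, ANXA3 and S100A2 had the largest folds of the tested members, all from low levels. ANXA1 encodes a phospholipid-binding protein known as a mediator of glucocorticoid anti-inflammatory action. Its level was 0.590, 0.838 and 0.762 CPM in UNC2400 replicates 1 to 3 and 2.67, 8.21 and 6.63 CPM in UNC1999 replicates 1 to 3, a log2 fold change of 2.97 ± 0.34 (SE). Ranked by log2 fold change it was number 14 from the top among all genes tested. The groups did not overlap, and UNC1999 replicate 1 lay well below the other treated libraries; without it the log2 fold change was 3.29, and without UNC1999 replicate 2 it was 2.63. S100A14 encodes an S100 protein of epithelial cells. It measured 1.35, 1.34 and 1.16 CPM with UNC2400 and 5.69, 9.27 and 10.4 CPM with UNC1999, a log2 fold change of 2.71 ± 0.21 (SE). Again the groups were apart and UNC1999 replicate 1 was the lowest treated library.

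ANXA3, which encodes a small annexin, measured 2.67, 1.58 and 2.78 CPM with UNC2400 and 9.23, 11.8 and 11.3 CPM with UNC1999. All treated libraries exceeded all controls by more than the spread within either group, and the log2 fold change was 2.23 ± 0.17 (SE; edgeR adjusted p = 2.23e-08). S100A2, an epithelial S100 gene, had 4, 7 and 2 counts in the UNC2400 libraries and 14, 24 and 20 counts in the UNC1999 libraries. Its log2 fold change was 2.09 ± 0.44 (SE; edgeR adjusted p = 0.000781), and the ratio of summed counts scaled for depth was 4.34 (exact 95% counting interval 2.35 to 8.63). With at most 7 counts in any control library, S100A2 passed the low-count filter through the UNC1999 libraries, so it could be tested only because it was higher there. With a filter that required a mean of 1 CPM in both groups, ANXA1, S100A1, S100A2 and S100B were not tested, and 12 of the 16 members left were higher (30.5% of all genes under that filter) and 1 lower (29.7%). That count includes ANXA4 and ANXA9, which passed the threshold under this filter (adjusted p = 0.0453 and 0.0479) and not in the main test.

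**Figure D1:**
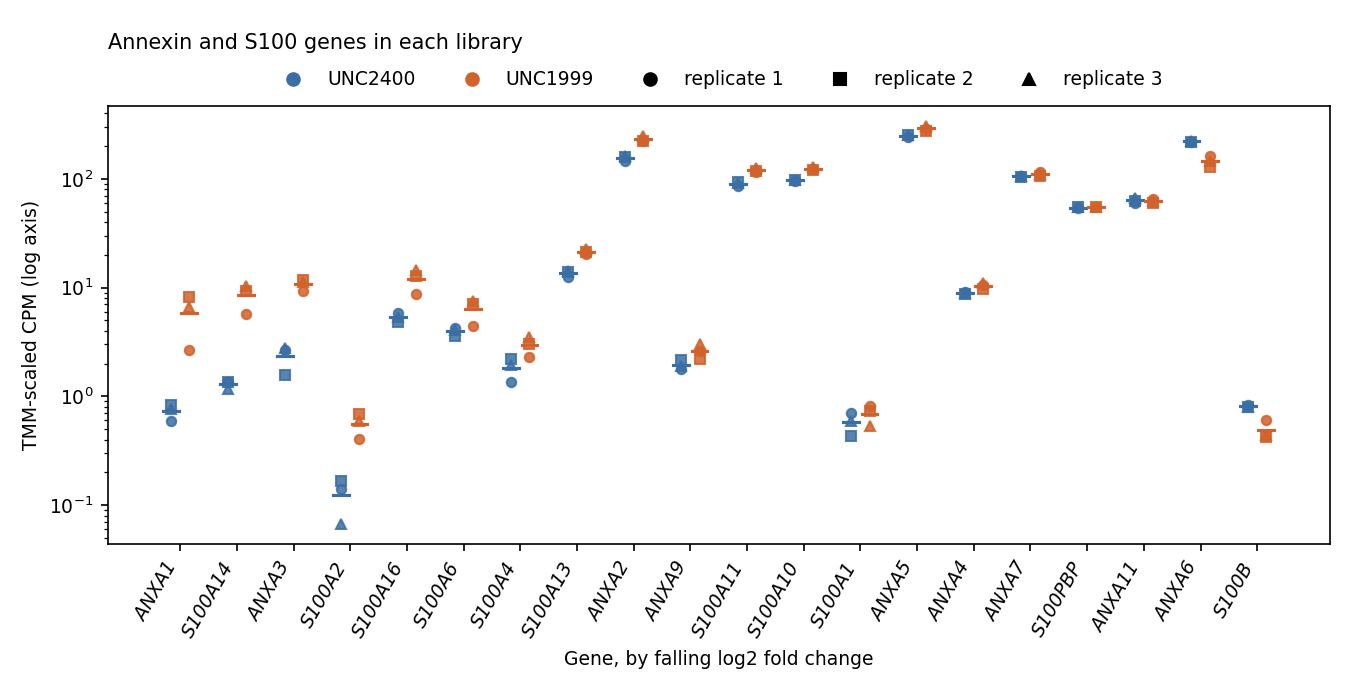
TMM-scaled CPM (log axis) of the 20 tested members in each library, ordered by falling log2 fold change. Blue is UNC2400, orange is UNC1999, marker shapes are replicate numbers and bars are group means. ANXA1, S100A14, ANXA3 and S100A2 show the widest gaps, and UNC1999 replicate 1 (orange circle) is the lowest treated library for 10 of the 12 genes that rose.

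Promoter sequences are shown for 6 members, chosen after their values were seen: the 3 with the largest folds, the ANXA2 and S100A10 pair, and ANXA6, which fell. RefSeq sequences (build GRCh38.p14, whereas the counts were made on hg19) were found for 29 of the 32 members, ANXA8, ANXA13 and S100B being the others. Each line is the 250 bases before a start site, read 5′ to 3′ on the strand of the gene. Capitals mark matches, on either strand, to an AP-1 site (TGANTCA), a TEAD site (GGAATG), a GC box (GGGCGG) or a TATA box (TATAAA); GC boxes may overlap each other.
ANXA1, chr9:73151615-73151864, plus strand: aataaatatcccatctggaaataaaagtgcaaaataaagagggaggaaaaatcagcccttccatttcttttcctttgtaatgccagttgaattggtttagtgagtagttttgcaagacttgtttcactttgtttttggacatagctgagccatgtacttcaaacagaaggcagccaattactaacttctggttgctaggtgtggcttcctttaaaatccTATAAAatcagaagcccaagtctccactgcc
S100A14, chr1:153616326-153616575, minus strand: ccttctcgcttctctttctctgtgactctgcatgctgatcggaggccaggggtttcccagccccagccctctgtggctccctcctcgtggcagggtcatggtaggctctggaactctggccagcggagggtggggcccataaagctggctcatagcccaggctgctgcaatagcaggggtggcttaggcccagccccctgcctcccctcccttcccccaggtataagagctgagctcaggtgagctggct
ANXA3, chr4:78551520-78551769, plus strand: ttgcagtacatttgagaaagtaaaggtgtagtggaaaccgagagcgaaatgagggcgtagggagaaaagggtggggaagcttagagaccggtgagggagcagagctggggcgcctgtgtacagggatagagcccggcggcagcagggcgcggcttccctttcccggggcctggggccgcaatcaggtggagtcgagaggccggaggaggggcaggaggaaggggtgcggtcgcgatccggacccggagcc
S100A10, chr1:151993860-151994109, minus strand: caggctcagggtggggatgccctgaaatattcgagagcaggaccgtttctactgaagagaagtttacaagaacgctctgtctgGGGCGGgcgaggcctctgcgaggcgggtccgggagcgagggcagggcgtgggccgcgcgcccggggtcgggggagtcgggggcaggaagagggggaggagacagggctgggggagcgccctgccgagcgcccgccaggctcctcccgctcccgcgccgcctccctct
ANXA2, chr15:60397987-60398236, minus strand: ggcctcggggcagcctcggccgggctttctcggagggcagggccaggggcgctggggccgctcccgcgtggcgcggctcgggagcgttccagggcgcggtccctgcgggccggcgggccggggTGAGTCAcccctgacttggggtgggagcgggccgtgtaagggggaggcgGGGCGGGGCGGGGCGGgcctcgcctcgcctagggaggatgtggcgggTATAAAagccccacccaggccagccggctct
ANXA6, chr5:151157780-151158029, minus strand: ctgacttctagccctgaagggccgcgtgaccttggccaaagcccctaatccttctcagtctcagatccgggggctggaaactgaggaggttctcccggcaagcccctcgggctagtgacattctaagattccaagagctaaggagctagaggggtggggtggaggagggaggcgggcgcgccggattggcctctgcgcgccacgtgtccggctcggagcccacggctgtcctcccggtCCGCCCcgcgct

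The ANXA1 stretch held 0 CpG dinucleotides and was 38.4% G or C, with a TATA box whose first base lay 31 bases before the start. That of S100A14 held 4 CpGs and no match to the 4 motifs. ANXA3 stood apart from these with 18 CpGs. S100A10, ANXA2 and ANXA6 held 24, 28 and 19 CpGs. Another listed start of ANXA6, not shown, held 10 CpGs and no match to the 4 motifs. For comparison, the median was 11 CpGs over all 35116 stretches in the table and 19 over those of the tested genes.

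**Figure D2:**
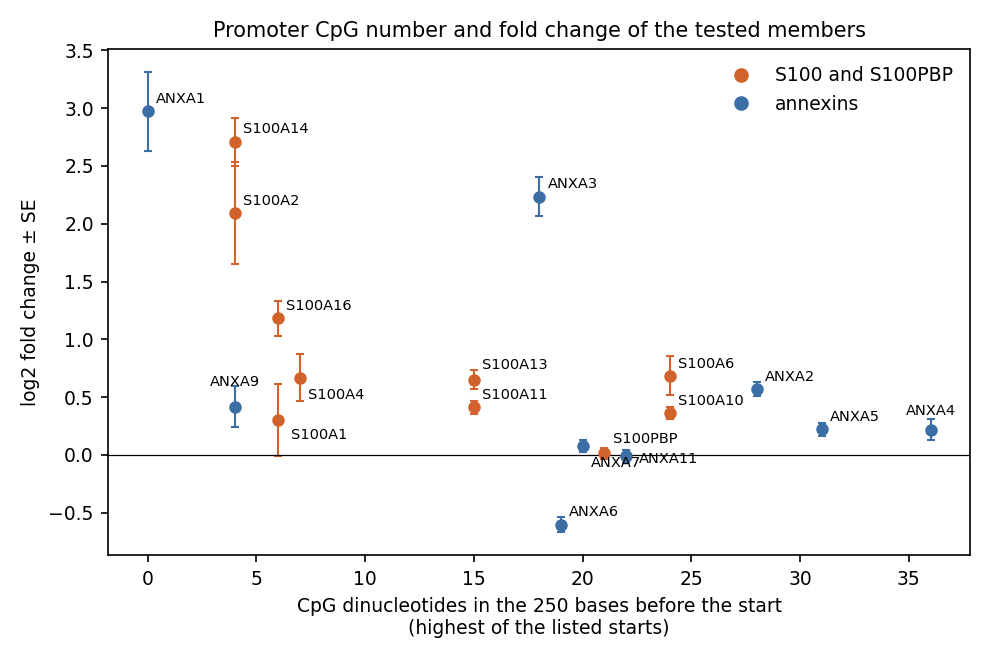
CpG number in the 250 bases before the start (highest of the listed starts) against log2 fold change ± SE for the 19 tested members with a promoter sequence. ANXA1, S100A14, S100A2 and S100A16 combine 6 or fewer CpGs with log2 fold changes over 1. ANXA3 combines 18 CpGs, near the median of 19 for tested genes, with a large fold. S100A1, S100A4 and ANXA9 are CpG-poor with small folds. A relation between CpG number and fold was not tested.

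Among all listed starts, S100A2 held 3 or 4 CpGs and S100A16 1 or 6. Of the 29 members with a sequence, 13 held a TATA box before at least 1 start, against 13.05% of the 27305 gene symbols in the table. Of the 19 tested members with a sequence, 5 did, against 8.46% of tested genes. Several TATA boxes belonged to S100 genes with hardly a read here, such as S100A7 and S100A9. GC boxes were found for 12 of the 19 tested members, against 73.4% of tested genes, an AP-1 match for 3 of 19 (ANXA2, S100A2 and S100PBP), against 6.26%, and a TEAD match for 1 of 19 (S100A16), against 13.2%. A match is a description of letters and says nothing of binding.

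The ANXA2 and S100A10 pair was abundant and rose moderately, ANXA2 by more. ANXA2 measured 146, 159 and 163 CPM with UNC2400 and 222, 222 and 250.3 CPM with UNC1999. The groups were apart, with a log2 fold change of 0.57 ± 0.06 (SE; edgeR adjusted p = 8.02e-07). S100A10 measured 94.96, 97.1 and 98.1 CPM with UNC2400 and 123, 121 and 129.6 CPM with UNC1999, a log2 fold change of 0.36 ± 0.05 (SE; edgeR adjusted p = 1.20e-05), and 0.20 with offsets for gene length and GC content. The count ratio of ANXA2 to S100A10, which needs no scaling between libraries, was 1.54, 1.64 and 1.66 in the controls and 1.81, 1.84 and 1.93 in the treated libraries, again without overlap. Reads from the ANXA2 pseudogenes were few: ANXA2P1 had 11 and 9 counts, ANXA2P2 3 and 8 and ANXA2P3 none, summed within each group. Reads that match ANXA2 and a pseudogene alike may not have been counted.

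S100A11, a partner of ANXA1 with a role in epidermal growth control, followed S100A10 closely. It measured 85.5, 93.6 and 90.6 CPM with UNC2400 and 115, 117 and 127 CPM with UNC1999, a log2 fold change of 0.41 ± 0.05 (SE; edgeR adjusted p = 9.51e-06). S100A10 and S100A11 together made most of the S100 counts: 45.1% ± 0.645 and 41.9% ± 0.859 with UNC2400, and 41.9% ± 1.54 and 40.3% ± 0.479 with UNC1999 (SD, n = 3 each). The summed S100 level went from 214 ± 5.96 to 297 ± 18.2 CPM (SD, n = 3 each).

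The annexins that make up most of the family's counts went in different directions. ANXA5, known for binding exposed phosphatidylserine, measured 243, 253 and 254 CPM with UNC2400 and 288, 278 and 308 CPM with UNC1999, without overlap and with a log2 fold change of 0.22 ± 0.05 (SE; edgeR adjusted p = 0.00229). That call was lost without UNC1999 replicate 3 (0.16, adjusted p = 0.0549) and with offsets for gene length and GC content (0.09, adjusted p = 0.145). ANXA6, an annexin with a doubled core domain that acts in endocytosis and cholesterol transport, was the 1 member that fell. It measured 219, 220.1 and 223 CPM with UNC2400 and 162, 129 and 145 CPM with UNC1999, so all treated libraries were below all controls. Its log2 fold change was -0.60 ± 0.07 (SE; edgeR adjusted p = 1.38e-06), between -0.71 and -0.50 in all 15 alternatives.

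As a result the make-up of the annexin counts differed between the compounds. ANXA6 took 27.3% ± 0.466 of all annexin counts with UNC2400 and 16.6% ± 1.58 with UNC1999, and ANXA2 19.3% ± 0.638 and 26.6% ± 1.20 (SD, n = 3 each). The count ratio of ANXA2 to ANXA6 was 0.667, 0.724 and 0.731 in the controls and 1.37, 1.73 and 1.73 in the treated libraries. ANXA1, despite the largest fold, reached 0.676% ± 0.349 of annexin counts with UNC1999 (SD, n = 3). The summed annexin level was 809 ± 19.5 CPM with UNC2400 and 871 ± 41.9 CPM with UNC1999 (SD, n = 3 each), and its ranges overlapped, from 789 to 827 and from 826 to 908 CPM.

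ANXA7 and ANXA11, annexins with long N-terminal tails that bind the calcium sensor PDCD6, did not pass the threshold. The log2 fold change of ANXA7 was 0.08 (95% interval -0.03 to 0.18) and that of ANXA11 was -0.01 (95% interval -0.13 to 0.10). ANXA4 measured 9.13, 8.72 and 8.98 CPM with UNC2400 and 10.5, 9.78 and 10.9 CPM with UNC1999, and did not pass (log2 fold change 0.22 ± 0.09, SE; edgeR adjusted p = 0.0552). With those offsets its log2 fold change was 0.49 (adjusted p = 0.000167). It has the longest genomic span of the tested members, 182676 bases. ANXA9, whose core has lost most calcium sites, measured 1.94 ± 0.197 and 2.61 ± 0.395 CPM (SD, n = 3 each; edgeR adjusted p = 0.0584). Without UNC1999 replicate 2, ANXA4 and ANXA9 passed (adjusted p = 0.0443 and 0.0320).

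S100A16, S100A13, S100A6 and S100A4 rose from low or middling levels. S100A16, a widely expressed S100 gene, measured 5.83, 4.79 and 5.402 CPM with UNC2400 and 8.79, 12.9 and 14.5 CPM with UNC1999 (log2 fold change 1.18 ± 0.15, SE; edgeR adjusted p = 6.19e-06). S100A13, which takes part in the release of FGF1, measured 12.4, 13.96 and 14.2 CPM and then 20.2, 21.1 and 22.6 CPM (0.65 ± 0.08, SE; edgeR adjusted p = 3.59e-06). Its treated libraries lay close together, UNC1999 replicate 1 included. S100A6, known as calcyclin, measured 4.27, 3.57 and 4.04 CPM with UNC2400 and 4.44, 7.02 and 7.52 CPM with UNC1999 (0.68 ± 0.17, SE; edgeR adjusted p = 0.00252). The groups were barely apart, since UNC1999 replicate 1 lay just above the highest control.

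S100A4, a gene tied to cell motility, measured 1.35, 2.20 and 1.92 CPM with UNC2400 and 2.29, 3.04 and 3.51 CPM with UNC1999 (log2 fold change 0.67 ± 0.20, SE; edgeR adjusted p = 0.0113). This call was lost without UNC2400 replicate 1 (adjusted p = 0.0653), without UNC1999 replicate 3 (0.0750) and with the offsets for length and GC (0.0656). S100B, best known from glia, measured 0.833, 0.790 and 0.795 CPM with UNC2400 and 0.609, 0.426 and 0.442 CPM with UNC1999. All treated values were below all controls, but the gene did not pass (log2 fold change -0.70 ± 0.29, SE; edgeR adjusted p = 0.0526). It passed without UNC1999 replicate 1 (-0.91, adjusted p = 0.0343), with limma-voom (-0.71, adjusted p = 0.0494) and with the offsets for length and GC (-0.99, adjusted p = 0.0106).

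For S100A1, known from heart muscle, the log2 fold change was 0.30 and its 95% interval, -0.36 to 0.96, was wide. S100PBP, which belongs to the list by its partner only, did not pass either (0.01, 95% interval -0.09 to 0.12), and its 6 libraries ranged from 53.6 to 54.9 CPM. In GENCODE release 29, S100A1 overlaps S100A13 on the opposite strand and S100A4 overlaps S100A3 on the same strand. The strand setting of the counting is not given in the sources used here, so reads in the shared stretches may be split or dropped. S100PBP and ANXA4 overlap YARS and AAK1 on the opposite strand.

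**Figure D3:**
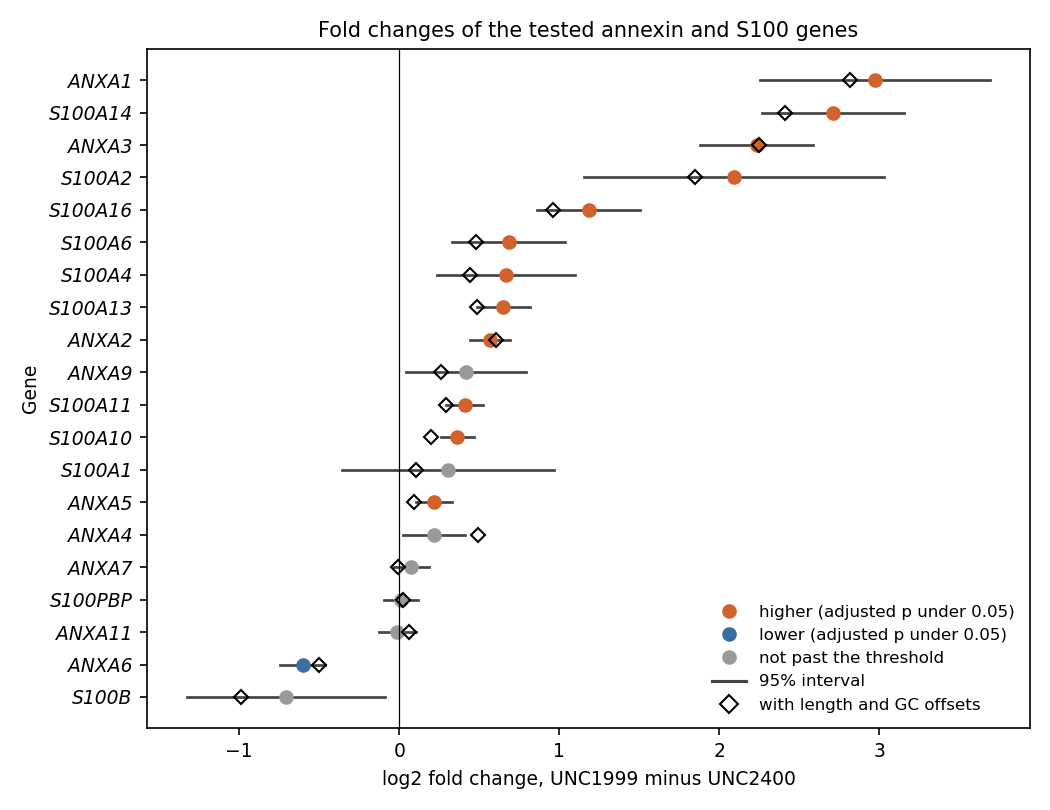
Log2 fold change (UNC1999 minus UNC2400) of the 20 tested members with 95% intervals, coloured by the edgeR call; open diamonds are the values with length and GC offsets. The diamonds lie left of the circles for the S100A genes, while ANXA4 moves right and the ANXA3 value stays in place.

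The S100 genes are short, and short genes were more often higher than long ones in these libraries. The 10 tested S100 genes had a median genomic span of 6392 bases, the 9 tested annexins one of 54684 bases and all annotated tested genes one of 31215 bases. Of the 1704 tested genes spanning under 5 kb, 39.9% were higher and 7.39% lower, and of the 1532 spanning 5 to 10 kb, 44.4% were higher and 11.1% lower. Of the 3003 genes over 100 kb, 9.82% were higher and 54.4% lower. Of the 10 tested S100 genes 8 were higher and none lower (26.8% and 25.9% of all genes tested), with a median log2 fold change of 0.66. The 8 include S100A14, by which the family was chosen, and S100A2, which passed the low-count filter through the UNC1999 libraries. Nothing about the family is read from the counts and medians given here. Once span, exon length and GC content entered the fit as offsets, 7 were higher and 1 lower (23.9% and 25.1% of all tested genes) and the median was 0.46. The tested annexins had 4 higher and 1 lower under both, with medians of 0.22 and 0.26. The genes were not the same, since ANXA5 lost its call with the offsets and ANXA4 gained one. With the offsets the log2 fold changes of S100A14 and ANXA1 were 2.41 and 2.82. The part of gene length in the members' values was not tested.

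Most S100A genes lie in a cluster on chromosome 1. Of its 15 S100A genes, 9 were tested, 8 of them higher and none lower, while S100A1 did not pass. The main background of 26.8% higher and 25.9% lower and the length values above apply. The 8 include S100A14, by which the family was chosen, and S100A2, which passed the filter through the UNC1999 libraries. Nothing is read from this count. The adjacent S100A2, S100A16 and S100A14 had the largest folds of the cluster. S100A10 and S100A11, at the other end of the cluster, had the smallest folds of those that rose. Between the outermost S100A genes, the annotation holds 71 other gene names, mostly of the epidermal differentiation complex, of which 52 are in the table and 35 of these had 0 counts in every library. The 1 tested was TCHH, for trichohyalin, which fell (log2 fold change -1.08 ± 0.38, SE; edgeR adjusted p = 0.0262).

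**Figure D4:**
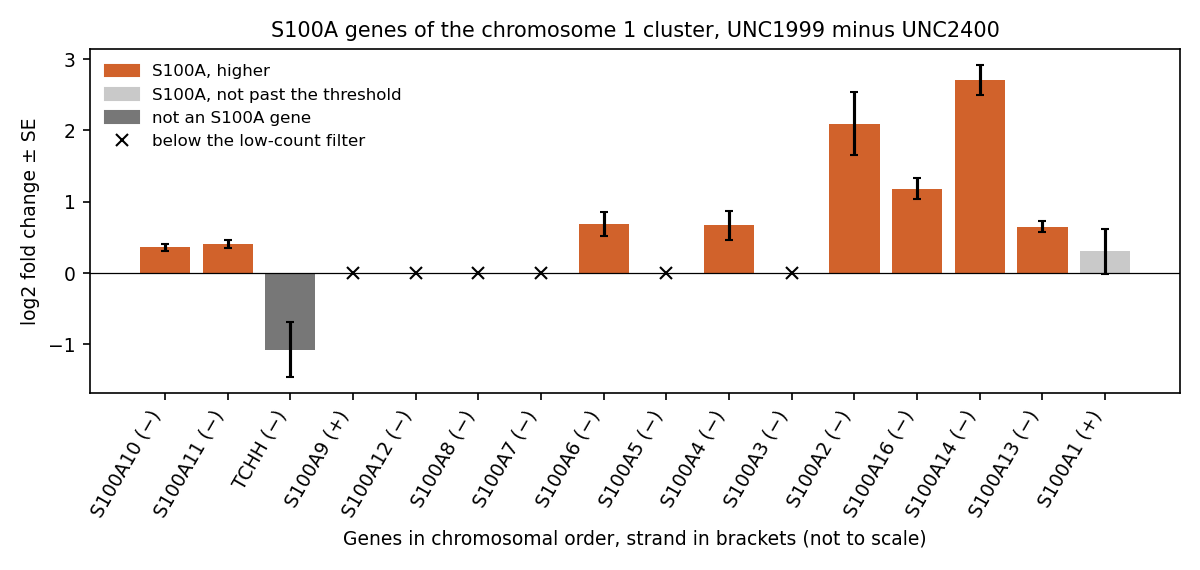
Log2 fold change ± SE of the S100A genes of the chromosome 1 cluster and of the other tested gene between them, in chromosomal order and not to scale, with the strand in brackets. Crosses mark genes below the low-count filter; S100A2, S100A16 and S100A14 stand highest and TCHH is below 0.

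The 12 members below the filter were at or near the limit of detection. S100A7, S100A8, S100A12, ANXA8 and ANXA13 were at 0 in each of the 6 libraries and have no fold. ANXA8 has near-identical copies, and reads that match several copies may not have been counted. S100A9 had 4 counts, all in UNC1999 replicate 2, and S100A5 had 1 count in UNC1999 replicate 1. S100A3 summed to 8 counts in the controls and 18 in the treated libraries (ratio scaled for depth 2.19, exact 95% counting interval 0.905 to 5.82). S100P had 8 and 17 counts (ratio 2.07, interval 0.845 to 5.53). Both intervals include equal levels. ANXA10 had 5 and 4 counts, S100Z 5 and 3, and S100G 3 and 3. The myeloid trio S100A8, S100A9 and S100A12 was therefore not detectable in the controls at this depth.

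Levels of different members can be compared only per length. With CPM divided by the kilobases of a gene's joined exons, S100A11 had the highest level with UNC2400, at 132 ± 6.01 CPM per kilobase. It was followed by ANXA5 at 82.4 ± 2.02, S100A10 at 62.7 ± 1.04, ANXA6 at 40.7 ± 0.332, ANXA7 at 36.9 ± 0.497 and ANXA2 at 17.7 ± 0.989 CPM per kilobase (SD, n = 3 each). With the median length of a gene's coding transcripts in place of the joined exons, an alternative chosen after seeing the data, ANXA6 (239 ± 1.95) and ANXA2 (233 ± 13.1) led. They differed by less than the spread of ANXA2, and ANXA5 (183 ± 4.49), S100A11 (151 ± 6.88) and S100A10 (106 ± 1.77 CPM per kilobase) followed. The order of the abundant members thus depends on the length used, while S100A11 was the highest S100 gene and S100A10 the next on both scales. S100A2 and then ANXA1 were the lowest tested members with UNC2400 on both scales, with ANXA1 at 0.160 ± 0.0278 and S100A1 at 0.189 ± 0.0439 CPM per kilobase of joined exons within each other's spread (SD, n = 3 each).

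UNC1999 replicate 1 was the treated library nearest the controls for most rising members. It was the lowest treated library for 10 of the 12 members that rose, and UNC1999 replicate 3 was the highest for 9. Over all 4714 genes called higher, UNC1999 replicate 1 was the lowest for 67.8% and UNC1999 replicate 3 the highest for 51.3%. Without UNC1999 replicate 1, 12 members were higher (27.4% of all tested genes) and 2 lower (28.6%), the second being S100B. Without UNC1999 replicate 2, 14 members were higher (22.7%) and 1 lower (24.2%), and without UNC1999 replicate 3, 10 were higher (20.2%) and 1 lower (22.8%).

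Genes that act with annexins and S100 proteins went both ways. Of 12 listed receptors and extracellular partners, 7 were tested, of which 4 rose and 2 fell (26.8% and 25.9% of all genes tested). TLR4, which binds several extracellular S100 proteins, went from 0.232 ± 0.0864 to 0.964 ± 0.292 CPM (SD, n = 3 each; log2 fold change 2.06 ± 0.37, SE; edgeR adjusted p = 0.000199). AGER, the receptor RAGE, went from 0.629 ± 0.201 to 1.299 ± 0.426 CPM (SD, n = 3 each; edgeR adjusted p = 0.00832). TLR4 summed to 23 counts in the controls and 100 in the treated libraries, so like S100A2 it passed the low-count filter through the group where it is high, and its p has that limit. The urokinase gene PLAU, whose protein cleaves plasminogen to plasmin, rose by 1.46 ± 0.22 and its receptor gene PLAUR by 0.59 ± 0.17 (log2, SE). The adhesion gene ALCAM fell by 0.37 ± 0.09 and BSG, for basigin, by 0.15 ± 0.06 (log2, SE). The ANXA1 receptors FPR1, FPR2 and FPR3 summed to 6, 10 and 3 counts in the controls and to 18, 11 and 2 in the treated libraries, and were not tested.

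Over all partner lists 19 of 59 tested genes were higher and 20 lower (26.8% and 25.9% of all genes tested), and without UNC1999 replicate 3 12 of 60 were higher and 16 lower (20.2% and 22.8%). Of 25 tested intracellular partners, 6 rose and 8 fell, with a median log2 fold change of -0.04. AHNAK, a giant scaffold protein that the ANXA2 and S100A10 complex binds at the membrane, went from 11.3 ± 2.19 to 32.4 ± 8.37 CPM (SD, n = 3 each; log2 fold change 1.54 ± 0.15, SE; edgeR adjusted p = 4.73e-07). MYH9, non-muscle myosin and a target of S100A4, fell by 0.89 ± 0.08, CAPN1, a calcium-activated protease, by 0.70 ± 0.08, and HLTF by 0.87 ± 0.06 (log2, SE). Of 26 other tested EF-hand calcium sensors, 9 rose and 9 fell, with a median of 0.01. The actin bundler gene LCP1 rose by 1.29 ± 0.08, while the reticulocalbin gene RCN3, NUCB1 and the alpha-actinin gene ACTN4 fell by 0.84 ± 0.06, 0.60 ± 0.06 and 0.69 ± 0.07 (log2, SE). Of 13 S100-fused-type and epidermal differentiation genes, 8 had 0 counts in every library.

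Markers of other cell types were set beside the members. Simple epithelial markers, which stem cells also express, were higher for 5 of 8 and lower for 1. The background for each list here is that of all genes tested, 26.8% higher and 25.9% lower. The 8 epithelial markers summed to 1488 to 1538 CPM with UNC2400 and 1665 to 1768 CPM with UNC1999. CLDN6 rose by 0.64 and EPCAM by 0.39, while CDH1, for E-cadherin, fell by 0.65 (log2; edgeR adjusted p = 9.30e-08, 9.03e-06 and 8.02e-07). Of 8 surface ectoderm or keratinocyte markers, SFN was the 1 tested, and it rose. That list summed to 5.80 to 6.66 CPM and 10.2 to 11.7 CPM, with its defining keratins KRT5, KRT14 and KRT17 at most 3 counts in any library. SFN alone made most of that sum (means 5.70 and 10.3 CPM). Of 8 amnion markers, 2 were tested and 1, IGFBP3, fell, the list summing to 17.5 to 19.4 CPM and 12.2 to 13.2 CPM. Trophoblast, mesoderm and endoderm lists summed to 50.0 to 51.9, 47.4 to 50.1 and 4.72 to 5.63 CPM with UNC2400 and to 54.7 to 57.7, 34.4 to 37.3 and 5.46 to 8.31 CPM with UNC1999. Single genes made most of 2 of these sums: TFAP2C for trophoblast (means 47.0 and 50.0 CPM) and PDGFRA for mesoderm (40.1 and 25.6 CPM). Of 3 tested trophoblast markers PGF rose and none fell. Of 4 tested mesoderm markers MIXL1 rose and PDGFRA fell. Of 5 tested endoderm markers GATA4 and CXCR4 rose and AFP fell. GATA4 went from 0.291 ± 0.0252 to 0.754 ± 0.242 CPM (SD, n = 3 each). At so low a control level it may have passed the filter on low counts through the UNC1999 libraries, and its call has that limit. Myeloid markers, none of which passed the test, summed to 2.78 to 3.51 CPM and 2.81 to 3.72 CPM. AIF1 alone made most of that sum (means 2.04 and 2.13 CPM). The part of such cells in the members' values was not tested.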

How the data were processed

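The authors deposited whole-number counts per gene name, without normalization, for 6 libraries; the file is marked as having duplicates removed. The submitters' processing notes name hg19 as the build and, with no order or role, Trim Galore 0.4.0, TopHat2 2.0.13, Subread 1.5.0 and featureCounts. The authors deposited log2 values marked as batch-corrected, with no batch named, which entered no test here. Per the file headers, their comparison table gives a log2 fold change, p-values and limma-style scores for each gene. Sample titles gave the groups.

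Counts were tested with edgeR 4.0.16 under R 4.3.3, using its two-sided quasi-likelihood F test with TMM factors, the default low-count filter and no term but the group, with Benjamini-Hochberg adjustment over 17596 genes and a threshold of 0.05; the steps were tested on simulated data. SE is the absolute log2 fold change over the root of F. CPM uses TMM-scaled library sizes. Of the gene names, 26 had become calendar dates and are not named. The alternatives were RLE and upper-quartile factors, DESeq2 1.42.0, limma-voom (limma 3.58.1), 2 other filters, a replicate block, length and GC offsets (GENCODE release 29, found for 84.4% of tested genes and all 20 tested members), both together, and each library left out.

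Every member is named; partner genes were named by smallest p, up to 4 per list, besides those chosen after seeing their values: PLAUR, BSG, the 3 FPR genes and single markers. The members and lists were chosen with earlier results of these data known. Same-numbered libraries of the 2 compounds were not treated as pairs.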

Additional observations from a re-analysis of the deposited data

How the results depend on the processing

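The number of members higher was 10 to 14 over all alternatives, against 12, and without each library in turn it was also 10 to 14 (20.2% to 27.4% of all genes). The number lower was 1, and 2 with limma-voom, with the length and GC offsets and with those offsets plus the replicate block; leaving out each library gave 1 to 2. In each of these S100B was the second. Over the partner lists 19 genes were higher and 20 lower (26.8% and 25.9% of all genes); leaving out each library gave 12 to 19 and 16 to 22, with 12 and 16 without UNC1999 replicate 3 (20.2% and 22.8%). Of the single-gene results of the 20 tested members under the alternatives, 279 kept their direction or lack of a call, 11 gained a call and 6 lost one, and no call changed its sign. Deviations of same-numbered libraries from their group means correlated at 0.0237, 0.0839 and 0.124, and those of differently numbered libraries at -0.136 to 0.0618. The same-numbered values were small but all positive, so a weak pairing remains possible. No label states that the numbers mark a batch, and they were not taken to pair the samples. With the replicate block 12 members were higher and 1 lower, and 4867 and 4695 of all genes. With the block and the offsets together 12 members were higher and 2 lower (24.7% and 26.0% of all genes), and ANXA5 had a log2 fold change of 0.09. With the offsets alone 11 members were higher and 2 lower (23.9% and 25.1%). Depth limits the members with few counts: S100A2, S100A1 and S100B had 13 to 81 summed counts per group.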
